A study of Mus musculus with 6 samples.

Results

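The 7 genes examined here encode enzymes of cardiolipin synthesis and remodelling: *Cds1*, *Cds2*, *Pgs1*, *Ptpmt1*, *Crls1*, *Taz* and *Lclat1*. The genes were taken by symbol from the 19445 loci of the deposited table. Each symbol was on a single locus. A locus was tested if its mean FPKM exceeded 1 in either genotype, which held for 11692 loci and for all 7 genes. FPKM corrects a fragment count for the length of the transcript and the size of the library, so levels of different genes can be set side by side, though only roughly. They also depend on the gene models and on how reads shared between loci were assigned, which was not checked. In *Hlx* transgenic inguinal white adipose tissue (iWAT), the RNAs of the last synthetic steps rose, *Crls1* by a ratio of 2.63 and *Ptpmt1* by a ratio of 1.46, whereas *Cds1*, *Cds2* and *Pgs1* of the earlier steps and *Taz* and *Lclat1* of remodelling did not pass the test. Of all tested loci 11.6% rose. The *Ptpmt1* call held in 11 of 14 other settings. Every transgenic mouse was above every wild-type mouse for *Taz* and *Lclat1* too, and below for *Cds1*.

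The mice were 12 weeks old, with 3 *Hlx* transgenic mice and 3 wild-type littermates and 1 library per mouse. The transgene is *Hlx* cDNA behind the *aP2* (*Fabp4*) promoter, which is active in brown and white fat, and the strain came from injected C57BL/6 × SJL embryos crossed back to C57BL/6. The sources used here do not say how many founder lines the 3 transgenic mice represent. The labels name no treatment for either genotype.

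*Hlx* RNA was 110, 79.6 and 99.5 FPKM in transgenic replicates 1, 2 and 3 and 6.88, 7.35 and 8.14 FPKM in the wild-type mice, so this gene followed the labelled genotypes. The labels also give male mice. Against that, *Xist*, the RNA that coats the silenced X chromosome in female cells, was between 20.2 and 33.6 FPKM in the 6 mice, and 0 of 28 Y chromosome loci had a value above 0. Each genotype shows the same pattern. Absolute depth is unknown. Relative depth, read from the steps between low values, was between 0.692 and 1.41 times that of wild-type replicate 3. Adipocyte markers were high throughout, with a summed level of 28200 to 33400 FPKM in transgenic and 23900 to 29600 FPKM in wild-type mice. Most of that sum was *Fabp4*, with means of 26590 and 21940 FPKM. Of the 6 tested adipocyte markers 0 rose and 1 fell, *Adipoq*, from 2481 to 1363 FPKM (log2 fold change -0.85, limma adjusted p = 0.0172). Brown and beige adipocyte markers summed to 6130 to 7930 FPKM against 611 to 1050 FPKM, and 6 of 7 rose. Macrophage markers summed to 357 to 503 FPKM against 747 to 953 FPKM, and 5 of 7 fell. Of 7 lymphocyte markers 1 fell (204 to 303 against 292 to 420 FPKM), of 7 endothelial markers 2 rose (150 to 160 against 136 to 145 FPKM), and of 7 fibroblast markers none was called, with 0 called higher and 2 at an unadjusted p under 0.05 in limma, both lower (1040 to 1360 against 1240 to 1700 FPKM). Across all tested loci 11.6% were called higher and 7.03% lower. Without adjustment, 2267 of the 11692 loci were higher and 1963 lower at p under 0.05 (limma). No marker of these lists was at 0 in all mice. The part of these marker shifts in the results was not tested, and a fit without 1 mouse does not test it. In whole tissue a change in the share of a cell type and a change of RNA per cell cannot be told apart.

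Cardiolipin is the phospholipid that marks the mitochondrial inner membrane, where it binds the respiratory complexes and shapes the cristae, and brown fat with its dense mitochondria is rich in it. Synthesis starts from phosphatidic acid, which CDP-diacylglycerol synthases activate to CDP-diacylglycerol. *Cds1* and *Cds2* encode such synthases of the endoplasmic reticulum, whereas the mitochondrial one is encoded by *Tamm41*, which was not analysed here. On the matrix side of the inner membrane CDP-diacylglycerol is joined to glycerol 3-phosphate, dephosphorylated to phosphatidylglycerol and condensed with a further CDP-diacylglycerol to form cardiolipin. The new molecule is then remodelled by exchange of its acyl chains. Loss of tafazzin, the transacylase that *Taz* encodes, causes Barth syndrome.

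The loci, in mm10, lie on 5 chromosomes. *Crls1* spans chromosome 2 from 132846565 to 132868296, *Cds2* chromosome 2 from 132263257 to 132312041 and *Ptpmt1* chromosome 2 from 90910713 to 90918050. *Cds1* spans chromosome 5 from 101765130 to 101823852, *Lclat1* chromosome 17 from 73107985 to 73243479, and *Pgs1* chromosome 11 from 117986857 to 118129219. *Taz* spans chromosome X from 74273217 to 74290151, which is the tafazzin locus and not that of *Wwtr1*, a gene also called TAZ. The table gives *Pgs1* the same interval as *Dnahc17*, which was at 0.0806 to 0.125 FPKM, and *Taz* the same interval as *Dnase1l1*, which was at 7.06 to 9.35 FPKM and had a log2 fold change of -0.17 (limma adjusted p = 0.328). In GENCODE the start of *Crls1* lies under the antisense gene *Gm14104*, and *Kbtbd4*, on the other strand and at 8.17 to 10.1 FPKM, runs into the 3′ end of *Ptpmt1*. Counting by strand is not described in the sources used here, so reads of such neighbours cannot be told apart where they overlap.

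The promoters of *Pgs1*, *Ptpmt1* and *Crls1* are shown because these genes encode the 3 successive steps from CDP-diacylglycerol to cardiolipin, of which the first was not called and the following steps rose. Each sequence is that of RefSeq on GRCm38.p6 and runs from 250 bases before the start site to 50 bases after it. They lie at chr11:117986607-117986906 on the plus strand, chr2:90918001-90918300 on the minus strand and chr2:132846416-132846715 on the plus strand. Capitals mark a match to a searched motif.
*Pgs1*: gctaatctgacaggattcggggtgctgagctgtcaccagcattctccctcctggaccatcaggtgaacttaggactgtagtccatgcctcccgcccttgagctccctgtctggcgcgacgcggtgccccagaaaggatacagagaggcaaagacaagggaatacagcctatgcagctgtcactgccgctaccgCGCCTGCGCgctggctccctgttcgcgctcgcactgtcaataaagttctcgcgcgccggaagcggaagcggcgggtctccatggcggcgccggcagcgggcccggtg
*Ptpmt1*: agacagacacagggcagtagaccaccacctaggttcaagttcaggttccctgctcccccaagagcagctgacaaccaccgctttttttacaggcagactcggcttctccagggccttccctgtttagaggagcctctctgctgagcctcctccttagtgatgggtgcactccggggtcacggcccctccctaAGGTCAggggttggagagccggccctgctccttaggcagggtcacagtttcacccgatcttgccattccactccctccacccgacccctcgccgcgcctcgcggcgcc
*Crls1*: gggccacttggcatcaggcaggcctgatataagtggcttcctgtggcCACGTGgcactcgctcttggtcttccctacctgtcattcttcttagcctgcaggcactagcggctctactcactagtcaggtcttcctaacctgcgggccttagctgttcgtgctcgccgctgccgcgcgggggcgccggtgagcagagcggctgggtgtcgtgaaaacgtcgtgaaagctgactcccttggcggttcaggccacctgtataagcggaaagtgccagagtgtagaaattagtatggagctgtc

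The motifs searched, on both strands, were the nuclear receptor core AGGTCA, the estrogen-related receptor element TCAAGGTCA, the NRF1 element GCGCANGCG, the E-box CACGTG, the CCAAT box CCAAT and the homeodomain core TAATTA. TCAAGGTCA contains AGGTCA, and no matches in the 7 promoters overlapped. With the start site at 0, the capitals in *Crls1* are an E-box from -203 to -198, those in *Ptpmt1* a nuclear receptor core from -58 to -53, and those in *Pgs1* an NRF1 element on the minus strand from -57 to -49. Of all 32851 promoters of that length, 7.15% hold the E-box, 16.3% the nuclear receptor core and 6.25% the NRF1 element. *Cds2* also holds an NRF1 element, and *Cds2* and *Lclat1* hold the CCAAT box, which 37.4% of all promoters have. The estrogen-related receptor element (0.423% of all promoters) and the homeodomain core (5.29%) were in 0 of the 7 promoters. The G and C content was 58.7% in *Crls1*, 62.0% in *Ptpmt1* and 63.3% in *Pgs1*, against a median of 52.7% for all promoters. None of the 6 motifs was shared by *Crls1* and *Ptpmt1*.

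Of the 7 genes, 2 rose at an adjusted p under 0.05 (limma on log2(FPKM + 1), n = 3 mice per genotype), and 0 fell. Across all tested loci 11.6% rose and 7.03% fell at that threshold. At an unadjusted p under 0.05 in limma, 4 of the 7 were higher and 1 was lower, against 2267 and 1963 of the 11692 tested loci. Each transgenic mouse was above each wild-type mouse for 4 genes, where 22.8% of all tested loci did so, and below for 1 gene, where 20.1% did so. The median log2 fold change of the 7 genes was 0.22, against -0.01 for all tested loci. For 1 gene, the exact permutation test over 3 and 3 mice has 0.1 as its smallest two-sided p.

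**Figure D1:**
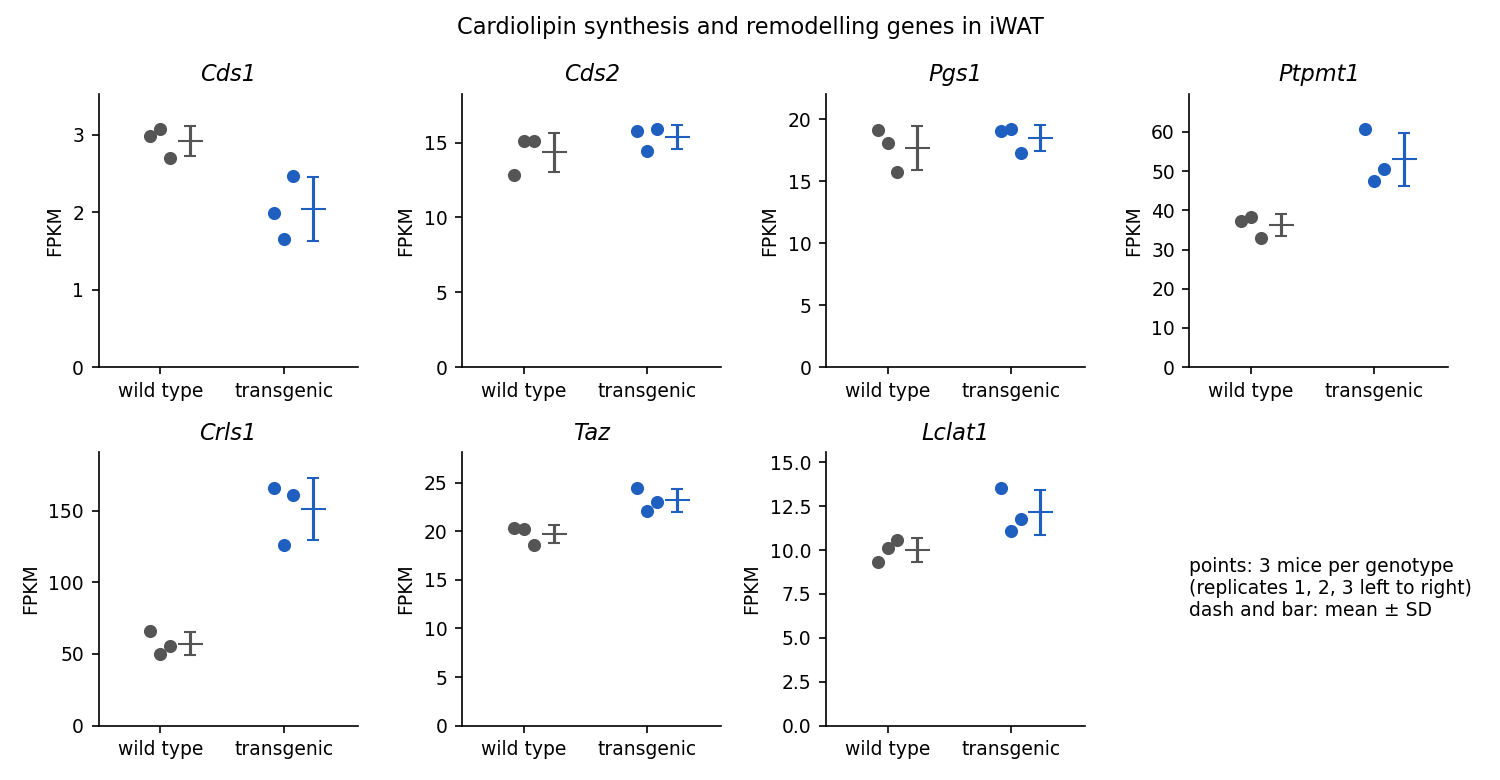
FPKM (y axis, from 0) of each of the 7 genes in the 3 wild-type and 3 transgenic mice. Points are mice, and the dash with its bar is the mean ± SD; the points of the genotypes stand apart for *Cds1*, *Ptpmt1*, *Crls1*, *Taz* and *Lclat1* and overlap for *Cds2* and *Pgs1*.

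The CDP-diacylglycerol synthases stood at different levels, and neither passed the test. *Cds2*, the more abundant isoform, was at 15.8, 14.5 and 15.9 FPKM in transgenic replicates 1, 2 and 3 and at 12.8, 15.1 and 15.1 FPKM in the wild-type mice. The genotypes overlapped, and wild-type replicate 1 alone was below all others. Its log2 fold change was 0.10 (95% interval -0.12 to 0.31, adjusted p = 0.471, limma). *Cds1*, encoding the other isoform, was at 2.00, 1.65 and 2.48 FPKM in the transgenic mice and at 2.99, 3.07 and 2.71 FPKM in the wild-type mice. All transgenic mice were below all wild-type mice, but the log2 fold change of -0.38 (standard error 0.13, 95% interval -0.67 to -0.08) had an adjusted p of 0.0787 (limma).

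Per mouse, *Cds1* made up 11.3%, 10.2% and 13.5% of the FPKM of both isoforms in transgenic replicates 1, 2 and 3, against 18.9%, 16.9% and 15.2% for wild type. The share was thus lower in each transgenic mouse, at 11.7% ± 1.65 (SD, n = 3) against 17.0% ± 1.85 (two-sided p = 0.1 by exact permutation). The log2 ratio of *Cds1* to *Cds2* differed by -0.47 between the genotypes (exact permutation p = 0.1, adjusted 0.125 over the 5 pairs compared). Epithelial (mammary) markers ran in the same direction as *Cds1*, with a summed level of 136, 188 and 267 FPKM in transgenic replicates 1, 2 and 3 and 305, 254 and 224 FPKM in the wild-type mice. Of their 9 tested genes 0 were called in limma, and at an unadjusted p under 0.05 1 was higher and 2 were lower. Of the 11692 tested loci, 2267 were higher and 1963 lower at that unadjusted threshold. Their part in the values of *Cds1* was not tested.

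*Pgs1* encodes phosphatidylglycerophosphate synthase, which commits CDP-diacylglycerol to this pathway. It was at 19.1, 19.2 and 17.3 FPKM in the transgenic mice and at 19.2, 18.1 and 15.8 FPKM in the wild-type mice. The ranges lay almost on top of each other. The log2 fold change was 0.07, with a 95% interval of -0.16 to 0.29 and an adjusted p of 0.649 (limma).

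*Ptpmt1* encodes the mitochondrial phosphatase that removes the phosphate from phosphatidylglycerophosphate. Its values were 60.7, 47.6 and 50.6 FPKM in the transgenic mice and 37.2, 38.3 and 33.0 FPKM in the wild-type mice. Each transgenic mouse was above each wild-type mouse, and transgenic replicate 1 was the highest. Mean *Ptpmt1* rose from 36.2 ± 2.82 to 53.0 ± 6.85 FPKM (SD, n = 3 mice), and the log2 fold change was 0.53 with a standard error of 0.11 (limma adjusted p = 0.02). The call was lost without transgenic replicate 3 (adjusted p = 0.0562), without wild-type replicate 3 (adjusted p = 0.0692) and with no filter on low FPKM (adjusted p = 0.069), with the log2 fold change between 0.43 and 0.61 over the 14 other settings tried.

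*Crls1*, encoding cardiolipin synthase, changed most of the 7. It was at 166.0, 126.1 and 160.6 FPKM in transgenic replicates 1, 2 and 3 and at 66.3, 50.2 and 55.3 FPKM in the wild-type mice. The lowest transgenic value, that of replicate 2, was still well above the highest wild-type value, that of replicate 1. Mean *Crls1* rose from 57.3 ± 8.21 to 150.9 ± 21.7 FPKM (SD, n = 3 mice), and the log2 fold change was 1.38 (95% interval 1.04 to 1.73, limma adjusted p = 0.00175). Among all tested loci, 98.5% had a smaller log2 fold change. *Crls1* was called in all 14 other settings, with log2 fold changes of 1.22 to 1.504 and an adjusted p of at most 0.0213.

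The transgenic mouse with the lowest *Crls1* and *Ptpmt1* values, replicate 2, also had the most skeletal muscle RNA. The 9 measured muscle markers summed to 99.5, 705 and 135 FPKM in transgenic replicates 1, 2 and 3 and to 7.52, 146 and 37.3 FPKM in the wild-type mice. Without that mouse both genes were still called, and *Crls1* had a log2 fold change of 1.504. The muscle sums of transgenic replicates 1 and 3 were above those of wild-type replicates 1 and 3 and below that of wild-type replicate 2. All 9 tested muscle markers had a positive log2 fold change, with a median of 2.17 and 0 called in limma. The part of muscle in the values of *Crls1* and *Ptpmt1* was not tested.

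*Taz* and *Lclat1* encode remodelling enzymes. Tafazzin moves acyl chains between phospholipids in mitochondria, and LCLAT1 (also called ALCAT1) reacylates lysocardiolipin. *Taz* was at 24.5, 22.1 and 23.0 FPKM in the transgenic mice and at 20.3, 20.2 and 18.6 FPKM in the wild-type mice. The genotypes did not overlap, and the log2 fold change was 0.22 (95% interval 0.04 to 0.40, adjusted p = 0.0843, limma). *Lclat1* was at 13.6, 11.1 and 11.8 FPKM in the transgenic mice and at 9.29, 10.1 and 10.6 FPKM in the wild-type mice. Here too the genotypes stood apart, by a narrow gap between transgenic replicate 2 and wild-type replicate 3, and the log2 fold change was 0.25 (95% interval 0.03 to 0.48, adjusted p = 0.107, limma). The log2 ratio of *Taz* to *Lclat1* differed by -0.03 between the genotypes, with overlapping values (exact permutation p = 0.9, adjusted 0.9 over the 5 pairs).

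**Figure D2:**
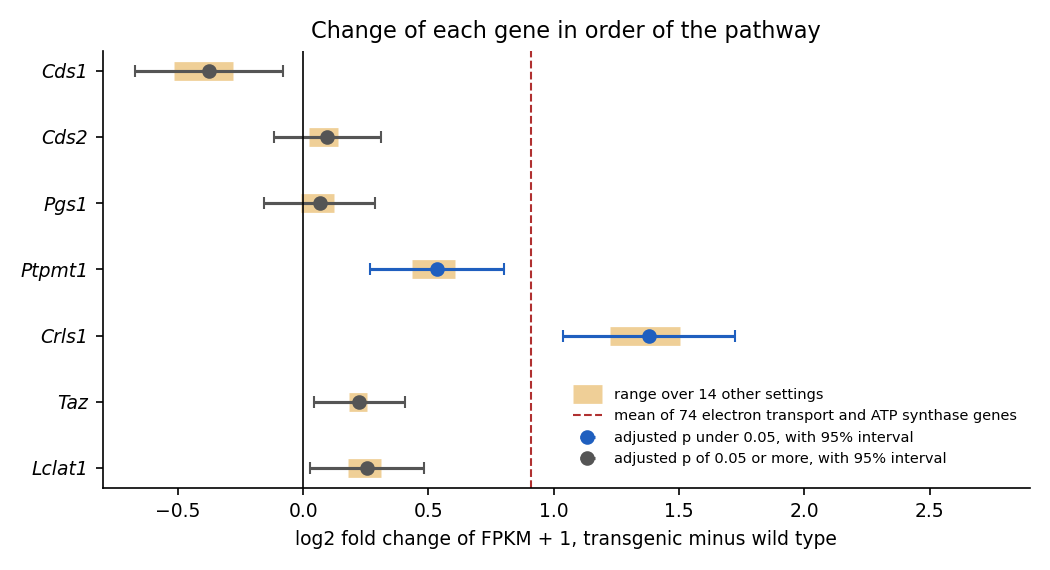
Log2 fold change of FPKM + 1 (x axis, transgenic minus wild type) of the 7 genes in the order of the pathway. Points with bars are limma estimates with 95% intervals, shaded bands the range over 14 other settings, and the dashed line the mean change of 74 electron transport and ATP synthase genes (0.91); *Crls1* alone lies to the right of that line.

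In wild-type iWAT the order of the levels was *Crls1* (57.3 FPKM), *Ptpmt1* (36.2), *Taz* (19.7), *Pgs1* (17.7), *Cds2* (14.3), *Lclat1* (10.01) and *Cds1* (2.92). The ranges of *Taz* and *Pgs1* overlapped, and those of the other neighbours did not. In transgenic iWAT the order was the same, and no neighbours overlapped. The *Crls1* FPKM was 8.71, 6.56 and 9.28 times that of *Pgs1* in the transgenic mice and 3.46, 2.77 and 3.51 times in the wild-type mice. Relative to *Ptpmt1* it was 2.74, 2.65 and 3.17 times in the transgenic mice and 1.78, 1.31 and 1.68 times in the wild-type mice. The log2 ratio of *Crls1* to *Pgs1* differed by 1.32 between the genotypes, that of *Crls1* to *Cds2* by 1.28, and that of *Ptpmt1* to *Pgs1* by 0.47, without overlap in each case (exact permutation p = 0.1 each, adjusted 0.125 over the 5 pairs).

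The spread between mice of a genotype, taken relative to the mean, did not follow the level. The coefficient of variation in transgenic mice was 14.4% for *Crls1* and 12.9% for *Ptpmt1*, against 5.12% to 10.4% for *Cds2*, *Taz*, *Pgs1* and *Lclat1*, and 20.3% for *Cds1*, the gene with the lowest level. In wild-type mice it was 14.3% for *Crls1* and between 4.79% and 9.84% for the others.

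Electron transport and ATP synthase genes, whose products sit in the membrane that holds cardiolipin, served as a reference for nuclear-encoded mitochondrial RNA in each mouse. All 74 listed nuclear genes were tested, 66 rose, and the list's median log2 fold change was 0.94, where 11.6% of all tested loci rose. *Crls1* had a larger log2 fold change than 68 of the 74 genes and *Ptpmt1* than 7, while *Taz* and *Lclat1* each exceeded 4. Their mean log2(FPKM + 1) was 8.50, 8.21 and 8.24 in transgenic replicates 1, 2 and 3 and 7.55, 7.43 and 7.23 in the wild-type mice. Relative to that mean, *Crls1* was at -1.11, -1.22 and -0.91 in the transgenic mice and at -1.48, -1.75 and -1.42 in the wild-type mice on the log2 scale. It was thus higher by 0.47 in transgenic iWAT. The other 6 genes were lower relative to the electron transport genes, *Ptpmt1* by a difference of -0.38, *Lclat1* by -0.66, *Taz* by -0.69, *Cds2* by -0.81, *Pgs1* by -0.84 and *Cds1* by -1.29. For each of the 7 the genotypes did not overlap on this scale (exact permutation p = 0.1 each, adjusted 0.1 over the 7 genes), and no direction changed with another pseudocount, with quantile normalization or median-ratio scaling, or with any mouse left out. The reference itself was higher by 0.91 in transgenic mice, without overlap. A gene that changed little, such as *Cds2* or *Pgs1*, is therefore bound to come out lower here. The share of all tested loci that stand apart on this scale was not computed. With quantile normalization the differences of *Ptpmt1*, *Lclat1* and *Taz* shrank to -0.20, -0.40 and -0.46. Those of *Cds2*, *Pgs1* and *Cds1* shrank to -0.565, -0.60 and -0.99, and that of *Crls1* grew to 0.57.

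**Figure D3:**
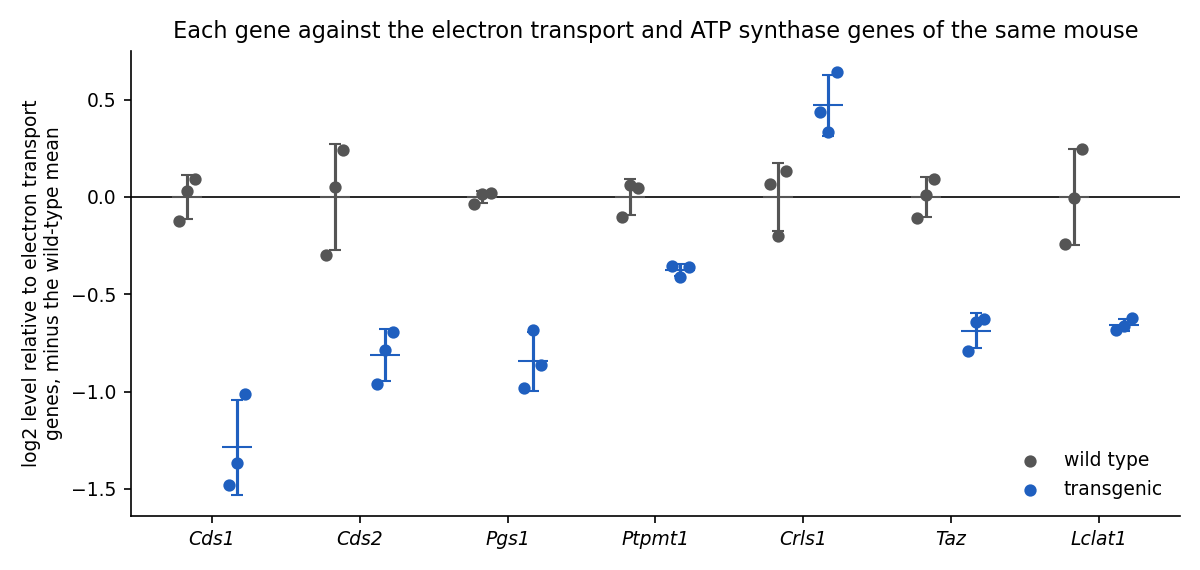
Log2(FPKM + 1) of each gene minus the mean of 74 electron transport and ATP synthase genes in the same mouse, with the wild-type mean of the gene set to 0 (y axis, log2 units). Points are mice and bars the mean ± SD (n = 3); transgenic points lie above the wild-type points for *Crls1*, by 0.47 on average, and below for the other 6 genes.

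Phosphatidic acid, the substrate of the CDP-diacylglycerol synthases, is formed by acyltransferases, of which 8 of 9 listed genes were tested, and 2 rose and 1 fell. For this list and those below, the shares over all tested loci were 11.6% called higher and 7.03% called lower, and no list was tested as a set. Without adjustment, 2267 of the 11692 tested loci were higher and 1963 lower at p under 0.05 (limma). *Agpat6* (GPAT4 in current naming), a glycerol 3-phosphate acyltransferase, went up from 46.4 ± 3.65 to 86.8 ± 11.8 FPKM (SD, n = 3 mice; log2 fold change 0.88, limma adjusted p = 0.0042). *Agpat9* (GPAT3), which catalyses the same reaction, fell, and its values were 16.2, 18.2 and 11.5 FPKM in the transgenic mice and 48.0, 30.5 and 26.6 FPKM in the wild-type mice. These did not overlap (log2 fold change -1.12, adjusted p = 0.0224, limma), and the call was lost without transgenic replicate 1 (adjusted p = 0.0523), without transgenic replicate 3 (0.0677) and with no filter (0.101). *Agpat3*, a lysophosphatidic acid acyltransferase, rose by 0.38 on the log2 scale (limma adjusted p = 0.0449), and its call was lost when any of the 6 mice was left out, with quantile normalization and with no filter (adjusted p up to 0.18). *Gpam*, a mitochondrial glycerol 3-phosphate acyltransferase, had nearly equal means of 67.2 and 67.8 FPKM in transgenic and wild-type mice (log2 fold change -0.01, limma adjusted p = 0.962). *Agpat2*, at 752.8 and 507.1 FPKM, was not called (0.60, limma adjusted p = 0.0875). Nor was *Agpat1*, at 82.0 and 64.3 FPKM (0.35, limma adjusted p = 0.0736). For both, every transgenic mouse was above every wild-type mouse. The list's median log2 fold change was 0.24. At an unadjusted p under 0.05 in limma, 4 of the 8 were higher and 1 was lower. The genes not called had log2 fold changes of -0.34 to 0.60 (limma adjusted p of 0.0736 or more).

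Phosphatidic acid must cross to the inner membrane, and 5 of the 7 genes listed for this transfer or for other uses of CDP-diacylglycerol were tested. *Slmo2*, encoding a lipid transfer protein of the intermembrane space now named PRELID3B, rose from 57.2 ± 3.31 to 96.5 ± 13.3 FPKM (SD, n = 3 mice; log2 fold change 0.74, adjusted p = 0.00701, limma). *Triap1*, the partner of such proteins, was at 19.3 and 17.6 FPKM in transgenic and wild-type mice (log2 fold change 0.13, adjusted p = 0.386, limma). *Cdipt*, which spends CDP-diacylglycerol on phosphatidylinositol, was at 47.4 and 49.2 FPKM (-0.05, adjusted p = 0.699). *Slmo2* was called, and 0 of the 5 were called lower. At an unadjusted p under 0.05 in limma, 2 of the 5 were higher and 0 lower. The genes not called had log2 fold changes of -0.05 to 0.39 (limma adjusted p of 0.129 or more). *Prelid1* shares its locus with *Nsd1* in the table and *Tamm41* was not matched, so neither was analysed here. The RNA of the mitochondrial CDP-diacylglycerol synthase is thus missing from these results.

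Of 6 genes listed for other acyl exchange or hydrolysis, 4 were tested, and 1 rose and 1 fell. *Hadha*, whose product is the alpha subunit of the trifunctional protein of β-oxidation and also acylates monolysocardiolipin, had 518.6, 449.4 and 489.4 FPKM in the transgenic mice and 142.7, 115.4 and 123.9 FPKM in the wild-type mice. The genotypes were far apart, and the log2 fold change was 1.93 (limma adjusted p = 0.000317). *Lpgat1*, a lysophosphatidylglycerol acyltransferase, fell from 34.2 ± 5.82 to 18.7 ± 2.06 FPKM (SD, n = 3 mice; log2 fold change -0.83, adjusted p = 0.00864, limma), a call lost with no filter (adjusted p = 0.05). *Pnpla8*, a mitochondrial phospholipase, was at 48.1 and 39.0 FPKM in transgenic and wild-type mice (0.30, adjusted p = 0.1), and *Pla2g6*, another calcium-independent phospholipase, at 17.2 and 18.4 FPKM (-0.10, adjusted p = 0.51). *Them5* and *Pld6* did not pass the filter.

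Among genes for transfer, binding and inner-membrane organisation, 8 of 9 were tested and 2 rose. *Apool*, a cardiolipin-binding subunit of the MICOS complex at cristae junctions, rose from 21.1 ± 3.29 to 38.7 ± 1.75 FPKM (SD, n = 3 mice; log2 fold change 0.86, adjusted p = 0.00394, limma). *Phb*, encoding prohibitin, an inner-membrane scaffold, went from 23.3 ± 2.2 to 35.9 ± 2.79 FPKM (0.60, adjusted p = 0.00844, limma). The partner *Phb2* was at 137 and 123 FPKM in transgenic and wild-type mice (0.16, adjusted p = 0.323). The transfer genes *Plscr3* and *Nme4*, encoding a scramblase and a nucleoside diphosphate kinase, had log2 fold changes of -0.14 and -0.09 (adjusted p = 0.257 and 0.548, limma). The median of this list was 0.20, and 0 were called lower in limma. At an unadjusted p under 0.05 in limma, 4 of the 8 were higher and 0 lower. The genes not called had log2 fold changes of -0.14 to 0.33 (limma adjusted p of 0.06 or more).

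Choline and ethanolamine phospholipids, the bulk of the other membrane lipids, were taken as a comparison, and 11 of 14 listed genes were tested. The 4 that rose were *Chpt1*, *Ptdss2*, *Pisd* and *Pcyt1a*, with log2 fold changes of 0.90, 0.56, 0.43 and 0.43 (limma adjusted p = 0.00848, 0.0127, 0.0366 and 0.0249). *Chpt1* encodes cholinephosphotransferase, and *Pisd* the mitochondrial enzyme that makes phosphatidylethanolamine. *Pisd* lost its call without any of the 3 transgenic mice or without wild-type replicate 2 or 3 (adjusted p up to 0.114), and *Pcyt1a* without transgenic or wild-type replicate 1 or 3 (adjusted p up to 0.0818) and with the replicate block (0.0637). With no filter *Pisd*, *Pcyt1a* and *Ptdss2* lost theirs too (adjusted p = 0.0979, 0.0682 and 0.0507). The list's median was 0.09, and 0 were called lower in limma. At an unadjusted p under 0.05 in limma, 4 of the 11 were higher and 0 lower. *Chkb* was not matched. The *Crls1* log2 fold change of 1.38 was above each of these 11, whereas that of *Ptpmt1* (0.53) lay between those of *Ptdss2* and *Pisd*.

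**Figure D4:**
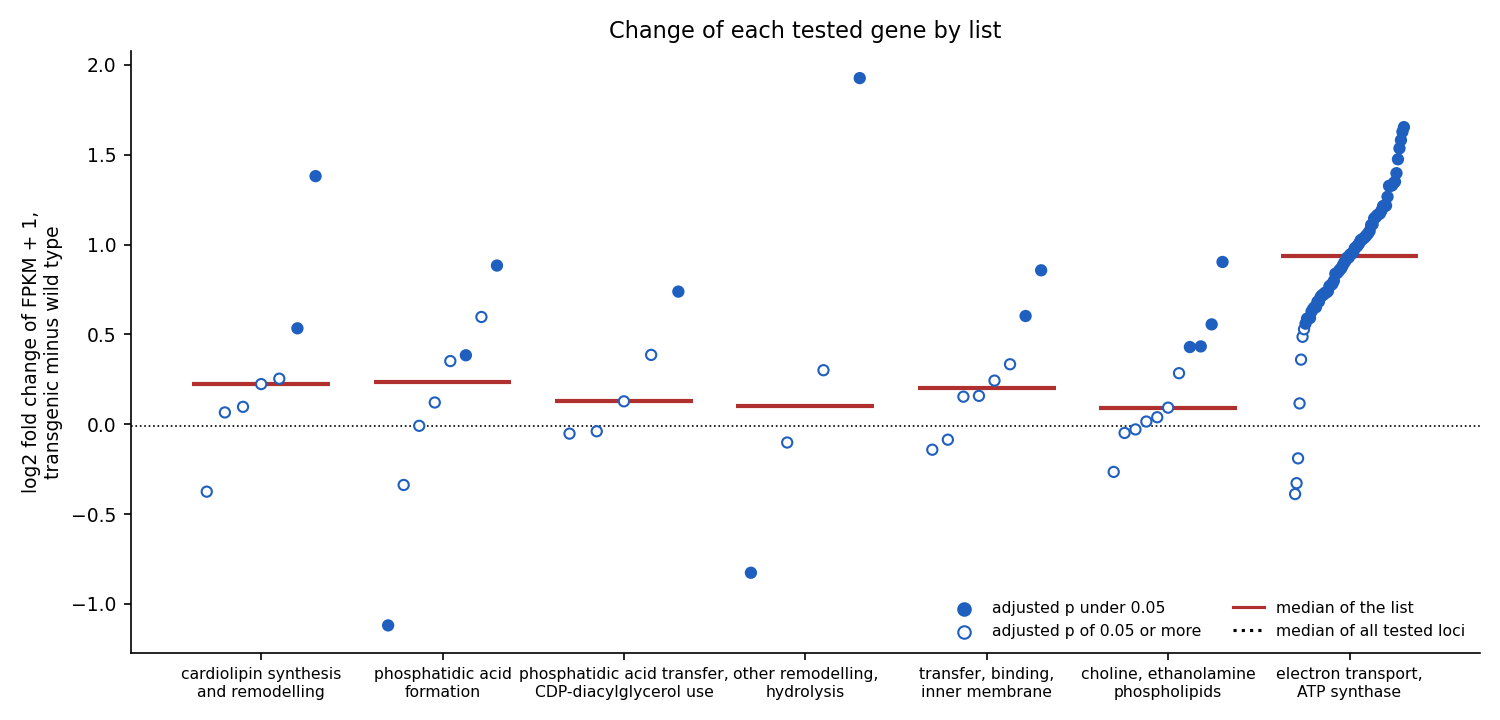
Log2 fold change of FPKM + 1 (y axis, transgenic minus wild type) of every tested gene of 7 lists. Filled points had an adjusted p under 0.05 in limma, red lines are list medians and the dotted line the median of all tested loci (-0.01); the electron transport list has a median of 0.94 and the other 6 lists medians of 0.09 to 0.24, with *Crls1* (1.38) the top point of the leftmost list.

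The loci whose pattern over the 6 mice lay nearest to *Crls1*, by the mean absolute difference of log2(FPKM + 1) centred on each gene's mean, were *Stau2*, *Dld* and *Fam82b*, at distances of 0.0236, 0.0513 and 0.0595. Their log2 fold changes were 1.37, 1.46 and 1.5. *Dld* encodes dihydrolipoamide dehydrogenase, a subunit of the pyruvate dehydrogenase complex, at 397 and 143 FPKM in transgenic and wild-type mice. *Stau2*, an RNA-binding protein gene, was at 18.3 and 6.49 FPKM. Nearest to *Ptpmt1* were *Ampd2*, *Nfe2l1* and *Dip2a*, at distances of 0.0253, 0.0273 and 0.0281 and with log2 fold changes of 0.48, 0.53 and 0.52. *Nfe2l1* encodes a transcription factor of the CNC family and was at 196 and 135 FPKM.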

How the data were processed

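RNA-Seq of iWAT from 3 transgenic and 3 wild-type mice was analysed. The authors made TruSeq libraries, mapped single-end reads to mm10 with TopHat and quantified transcripts with Cufflinks (per the labels, TopHat2 2.0.9, Bowtie2 2.1.0 and Cufflinks 2.2.1), and deposited FPKM per locus and mouse. The annotation is not given in the sources used here, and no counts were used. Starts in the table were raised by 1, after which 40.3% of loci started at a GENCODE transcript start, against 4.19% as deposited. The gene models of the table and of GENCODE differ.

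The filter kept 11692 of 19445 loci, those whose mean FPKM exceeded 1 in either genotype. Genotypes were compared on log2(FPKM + 1) by limma 3.58.1 (R 4.3.3) with genotype as the only term, eBayes moderation with a trend and two-sided p-values adjusted by Benjamini-Hochberg over the loci kept. A fold change on this scale understates that of low genes. Single values and ratios were tested by exact permutation over 20 arrangements (scipy 1.17.1). The procedure was tested on simulated data. The alternatives were a pseudocount of 0.1, 2 other filters, 2 normalizations, eBayes without trend, sample weights, the replicate number as a block and each mouse left out.

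The genes and lists were chosen with earlier results of these data known. Named were all 7 genes, called genes of the lists with some that were not called as examples chosen after their values were seen, and, for each called gene of the 7, the 3 nearest loci. Genes listed only on a locus with several symbols were not analysed. Protein sequences were not used here.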

Additional observations from a re-analysis of the deposited data

How the results depend on the processing

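Of the 7 genes, *Crls1* was called higher in all 14 other settings, and *Ptpmt1* in 11. The number called higher was 1 with no filter, where 19445 loci shared the adjustment, and 1 to 2 with a mouse left out (1 without transgenic replicate 3 and without wild-type replicate 3). In no setting was a gene of the 7 called lower, and the lowest adjusted p of *Cds1* was 0.0635. *Pgs1* changed sign without wild-type replicate 3 (log2 fold change -0.0104, limma adjusted p = 0.948, range -0.0104 to 0.12 with a mouse left out). The log2 ratio of *Taz* to *Lclat1* also changed sign, to 0.0074 without transgenic replicate 1 and 0.0383 without wild-type replicate 1, over a range of -0.11 to 0.0383 with a mouse left out. Among the 36 tested genes of the 5 other lipid lists, 10 were called higher and 2 lower. With no filter these counts were 6 and 0, and with a mouse left out 7 to 9 were called higher and 1 to 3 lower. With the replicate number as a block, 2 of the 7 genes were called higher and 10 and 2 of the list genes higher and lower. The deviations of mice sharing a number correlated at 0.0129, 0.0344 and 0.0701, each below the value of another pairing, so the numbers were not read as pairs. *Pcyt1a* lost its call under the block. Over all tested loci 1352 were called higher and 822 lower, against 748 and 381 with no filter, 780 to 1295 and 329 to 906 with a mouse left out, and 1230 and 656 with the block. Absolute depth is unknown, so no counting error can be given for *Cds1*, the lowest of the genes.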
